A study of Rattus norvegicus with 18 samples.

Results

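The beta-2 integrins are cell surface receptors of white blood cells and of microglia, the resident immune cells of the brain. They are described here through the genes of their subunits in the basolateral amygdala (BLA), a brain region that handles threat and stress. The subunits were chosen by gene symbol. All 4 symbols, Itgb2, Itgam, Itgal and Itgax, have a row in the processed table, so that they are 4 of its 19113 genes. The tissue came from 18 adult male Sprague-Dawley rats in 3 housing groups of 6. ER rats (enrichment removal) had lived in enriched housing and were then moved to single housing around the clock. EE rats (environmental enrichment) stayed in enriched housing, which meant a shared cage with toys during the active part of the day and single housing for the rest of it. SH rats (standard housing) were single-housed throughout. The labels name no transgene and no drug. Because enriched rats shared cages and the labels do not give the cage, an effect of the cage cannot be told apart from that of the housing.

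Every beta-2 integrin is a pair of chains. Itgb2 encodes the shared beta chain, CD18, and each alpha chain needs it to reach the cell surface. With Itgal (CD11a) it forms LFA-1, which lymphocytes use to hold on to Icam1 on other cells. With Itgam (CD11b) it forms Mac-1, also named complement receptor 3, which binds fragments of complement C3, fibrinogen and Icam1 and is carried by neutrophils, monocytes and microglia. In mice, this receptor takes part in the removal of synapses by microglia. With Itgax (CD11c) it forms complement receptor 4, which is best known from dendritic cells. For Itgad, the remaining alpha chain, no row of that name was found in the processed table, so that it was not analysed. In the RefSeq annotation of the rat Itgam, Itgax and Itgad are neighbours on chromosome 1, and RefSeq also lists "Itgax" as an older name of Itgad. The row named Itgax (ENSRNOG00000036703) could therefore be counted on either gene, and its symbol does not settle which.

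Myeloid expression of Itgam depends in cultured human and mouse cells on the transcription factor Spi1 (PU.1), which recognises a core of the letters GAGGAA on either strand. The stretch upstream of the rat Itgam gene is printed because Itgam is the subunit whose level differed most between EE and SH rats by p-value. The sequence is that of RefSeq for the build GRCr8, plus strand, chr1:192089342-192089495, and it ends at the base before the annotated span of the gene. Capitals mark GAGGAA or its reverse complement TTCCTC.

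Itgam: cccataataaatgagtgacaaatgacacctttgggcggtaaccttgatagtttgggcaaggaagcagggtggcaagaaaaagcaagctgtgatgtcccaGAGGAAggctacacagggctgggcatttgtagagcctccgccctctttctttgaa

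The stretch holds 1 match, which begins 55 bases before the start of the gene. The same search found at least 1 match in 15% of 33469 RefSeq promoter windows cut to their first 154 bases, so that a match is not rare. Where these bases lie relative to the start of each other gene was not checked. RefSeq promoter windows were found for 2 of the 4 subunits. For Itgam only the bases outside the annotated span of the gene are printed, and the window of Itgax lies inside that of its gene and is not printed. The first 250 bases of the Itgam window hold 2 matches. The match that is not printed, TTCCTC, lies inside the annotated span and begins 39 bases before the end of these 250. At that length 23.3% of the 33469 windows held at least 1 match. A match is a run of letters and not a measured binding site.

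Polyadenylated RNA of the BLA was sequenced with 1 library per rat and no pooling. A value below is a normalized read count, that is, the reads on a gene divided by a size factor of its library. It is not corrected for gene length, so each gene is compared between rats and not with other genes. The reads recovered from these values ranged over all libraries from 17753797 to 23450276. SH 3 and SH 1 stood apart from the other 16 libraries on the first principal component (20.4% of the variance), at -137 and -45.1 against -0.22 to 21.7 in the others. Their median correlations with other libraries were 0.944 and 0.962, against 0.970 to 0.977. Results are also given without this pair where they rest on it. All 9 markers of BLA excitatory neurons were present, with summed values of 82290 to 93870 in ER, 64560 to 99830 in EE and 69390 to 88810 in SH rats. Their log2 fold changes lay above 0 for 9 of 9 in ERvSH (median 0.24), 8 of 9 in ERvEE (median 0.25) and 4 of 9 in EEvSH (median -0.0073). One marker of this list, Rspo2, averaged 2028 ± 419 in ER, 1541 ± 717 in EE and 1693 ± 270 in SH rats (SD, n = 6 each). The part that differences between punches play in the integrin values was not tested.

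The groups were compared pairwise: EEvSH sets enriched rats against rats that never had enrichment, ERvEE sets rats that lost it against rats that kept it, and ERvSH sets rats that lost it against rats that never had it. Itgam and Itgal averaged highest in EE rats, and Itgb2 did so too, while Itgax was read from a handful of reads. In all 3 contrasts every subunit had overlapping groups, and none passed the test across all genes. In bulk tissue, fewer cells of a type and less RNA per cell cannot be told apart.

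Itgb2, the shared beta chain (ENSRNOG00000001224), was detected in every rat. Its normalized reads ranged from 119.5 to 195 (median 158) in ER rats, from 137 to 275 (median 211) in EE rats and from 114 to 239 (median 172) in SH rats. The means were 157 ± 32.1 in ER, 203 ± 54.3 in EE and 176 ± 41.9 in SH (SD, n = 6 each). All 6 ER rats lay below the EE median and 2 below the lowest EE rat. EE and SH rats were mixed, with 1 EE rat above the highest SH rat. The ranges rest on 107 to 184 reads per ER rat, 109 to 243 per EE rat and 106 to 220 per SH rat.

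Itgam, the alpha chain of complement receptor 3 (ENSRNOG00000019728), showed the widest separation between EE and SH rats by p-value. Its normalized reads ranged from 125 to 364 (median 320.3) in ER rats, from 257 to 524 (median 419.9) in EE rats and from 185 to 410.3 (median 205) in SH rats. The means were 291 ± 91.9 in ER, 401 ± 103 in EE and 264 ± 106 in SH (SD, n = 6 each). All 6 EE rats lay above the SH median and 3 above the highest SH rat. The SH rats split into a low set of 4, at 185 to 213, and SH 1 and SH 2, at 410.3 and 387. ER 5 was the lowest of all rats, at 125, and the other ER rats had 253 or more. All 6 ER rats lay below the EE median.

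Itgal, the alpha chain of LFA-1 (ENSRNOG00000017980), lay close together in ER rats and far apart in EE and SH rats. It had 22.8 to 34.2 normalized reads (median 27.7) in ER rats, 21.7 to 64.5 (median 42.8) in EE rats and 19.0 to 47.3 (median 26.7) in SH rats. The means were 28.4 ± 4.05 in ER, 43.2 ± 18.2 in EE and 28.8 ± 10.8 in SH (SD, n = 6 each). EE rats fell apart into 3 high animals, EE 1, EE 2 and EE 5, at 54.2, 59.2 and 64.5, and 3 lower ones at 21.7 to 31.4. These 3 high animals exceeded every SH rat. The coefficient of variation was 14.2% in ER, 42.2% in EE and 37.4% in SH, and the difference in spread was not tested. Between 18 and 57 reads stand behind each value, so that counting error alone is larger here than for Itgb2 or Itgam.

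Itgax, the alpha chain of complement receptor 4, was barely detected. It was at 0 in 5 of 6 ER rats, with 4.24 normalized reads in the remaining one, ER 2. EE rats ranged from 0 to 7.55 (median 1.52) with 2 of 6 at 0, and SH rats from 0 to 10.4 (median 3.19) with 2 of 6 at 0. The reads summed to 4 over the ER rats (exact Poisson 95% interval 1.09 to 10.2), 13 over the EE rats (6.92 to 22.2) and 22 over the SH rats (13.8 to 33.3). These intervals cover counting error only. The highest ER rat lay within the range of both other groups.

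**Figure D1:**
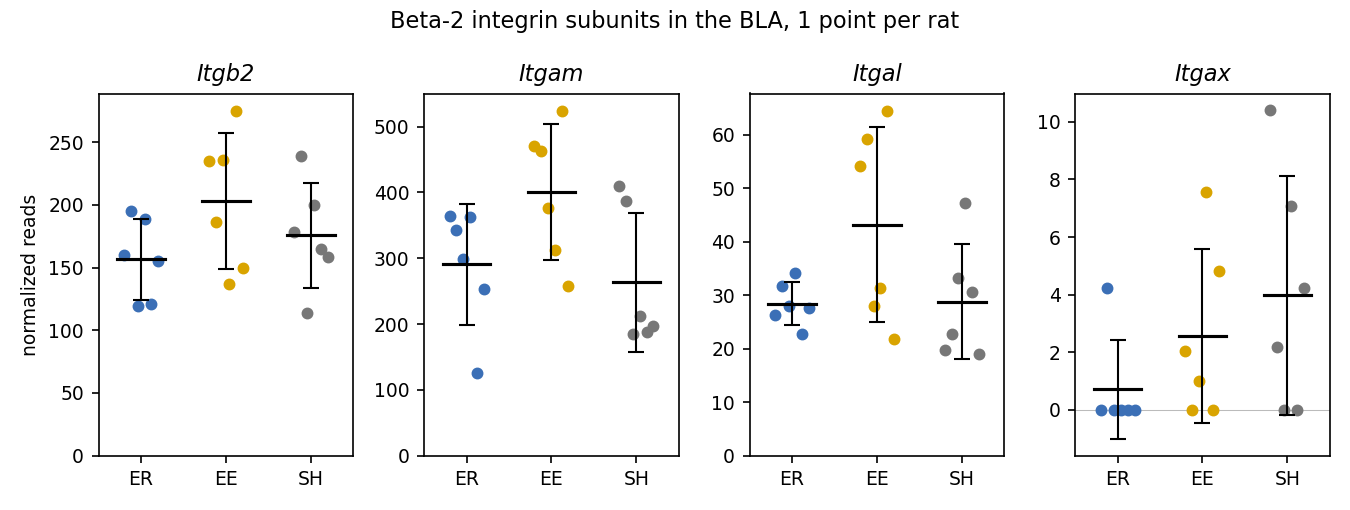
Normalized reads of the 4 subunits in each rat (1 point per rat, 6 per group; bars are the mean and the SD, and the Itgax bars run below 0 because the SD is larger than the mean or close to it). Itgam and Itgal show 3 EE rats above every SH rat, ER rats sit between 22.8 and 34.2 for Itgal, and Itgax is at 0 in 5 of 6 ER rats.

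Between EE and SH rats, 3 of the 4 log2 fold changes in EEvSH were above 0 (median of the 4, 0.36), against 53.7% above and 46.3% below 0 among all 18172 genes tested (median 0.018). The study had itself selected Itgam, Itgal and Itgb2 on these samples, so that their direction is not independent evidence. Itgam was 0.65 log2 units higher in EE rats (95% interval 0.089 to 1.20, a fold of 1.57, unadjusted p = 0.0252, adjusted p = 0.749, limma with Benjamini-Hochberg adjustment). Its unadjusted p passed 0.05, as it did for 5.87% of genes in this contrast, 3.35% with a higher and 2.53% with a lower value, so that 1 of 4 subunits is not read as a result about the family. Of all genes, 5.39% had a larger positive fold change than Itgam. Leaving out SH 5, SH 6, EE 1, EE 2 or EE 5 brought its unadjusted p to between 0.0508 and 0.0607. Without SH 1 and SH 3, the pair of libraries that stood apart, the difference was 0.72 (unadjusted p = 0.0151, limma).

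Itgal followed at 0.53 (95% interval -0.069 to 1.13, adjusted p = 0.749 by limma), a fold of 1.44. Itgb2, without which neither chain forms a receptor, differed by 0.20 (interval -0.21 to 0.61, adjusted p = 0.781), and by 0.07 without SH 1 and SH 3. Itgax was 0.39 lower on the log2 scale, with an interval of -1.88 to 1.11 (adjusted p = 0.88, limma). Adjusted p under 0.05 was reached by 0% of genes in EEvSH, and groups did not overlap in 0.171% of genes and 0 of 4 subunits.

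Between ER and EE rats, all 4 log2 fold changes in ERvEE lay below 0, with a median of -0.49. Among all genes 49.1% lay below and 50.9% above 0, and the median was 0.0030. Itgam differed by -0.50 (95% interval -1.06 to 0.057, a fold of 0.707, adjusted p = 1 by limma), and 5.72% of genes had a more negative value. Without ER 5, the rat with the least Itgam, the difference was -0.28 (unadjusted p = 0.245, limma). Itgal differed by -0.49 (interval -1.08 to 0.11) and Itgb2 by -0.36 (interval -0.77 to 0.055), both with an adjusted p of 1. For Itgax the difference was -0.98 (interval -2.47 to 0.52, adjusted p = 1), on the log2(value + 1) scale, which understates changes of low genes. EEvSH and ERvEE share the EE rats, so that a high EE mean enters both with opposite sign and the pair is not independent. With all 18 libraries none of the 4 passed an unadjusted p of 0.05, which 3.66% of genes did (1.38% higher, 2.28% lower). Without EE 6, Itgam, Itgb2 and Itgal differed by -0.62, -0.43 and -0.65 (unadjusted p = 0.0352, 0.046 and 0.0299, adjusted p = 0.65, 0.679 and 0.627, limma). In that fit 1312 of all 18172 genes had an unadjusted p under 0.05, against 665 with all libraries. Adjusted p under 0.05 was reached by 0% of genes, and 0.215% of genes had groups that did not overlap.

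Between ER and SH rats, the model gave small differences for the 3 subunits detected in every rat. Itgb2 differed by -0.15 (95% interval -0.57 to 0.26, adjusted p = 0.791 by limma) and Itgam by 0.15 (interval -0.41 to 0.70, adjusted p = 0.865). Without SH 1 and SH 3 the difference was -0.29 for Itgb2 and 0.22 for Itgam, and leaving out 1 rat at a time moved them between -0.27 and -0.060 and between 0.062 (without SH 3) and 0.37 (without ER 5). Itgal differed by 0.04 (interval -0.55 to 0.64, adjusted p = 0.966), a difference that turned to between -0.06 and -0.01 when SH 1, SH 2, SH 6 or ER 4 was left out, in both count models and in the log2 ratio of group means. The widest difference was that of Itgax, at -1.36 (interval -2.86 to 0.13, unadjusted p = 0.0713, adjusted p = 0.567, limma), and it rests on 4 reads in ER and 22 in SH rats. With 2 values above and 2 below 0, the subunits compare with 51.8% above and 48.2% below 0 among all genes. In this contrast 7.89% of genes had an unadjusted p under 0.05 (4.57% higher, 3.32% lower), 0% an adjusted p under 0.05, and 0.292% groups that did not overlap, and 0 of 4 subunits met any of these. The intervals still allow Itgam to differ by 0.70 log2 units upward or 0.41 downward, so that equal levels are not shown.

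**Figure D2:**
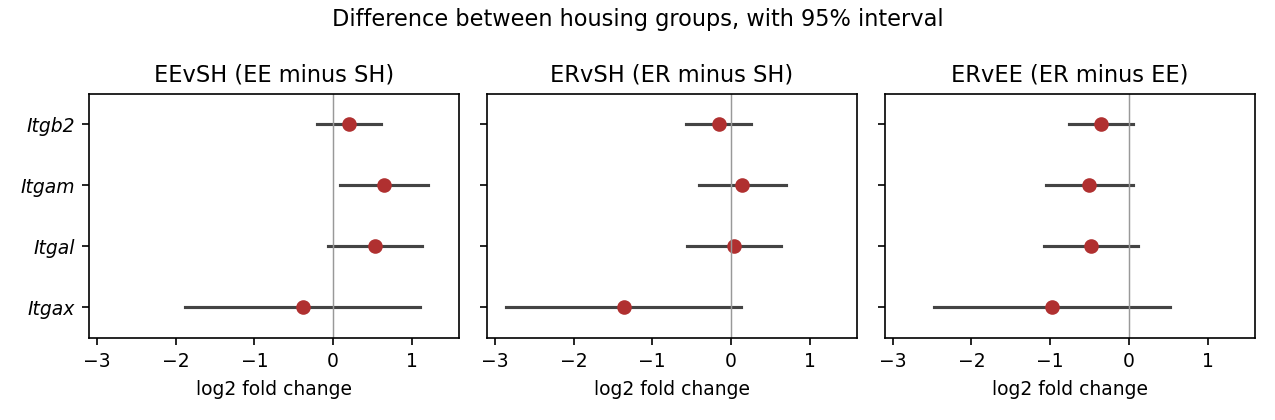
Log2 fold change of each subunit in the 3 contrasts (points, limma) with its 95% interval (lines); the vertical line is no difference. The interval of Itgam in EEvSH, 0.089 to 1.20, is the only one of the 12 that does not reach 0, and all 4 points of ERvEE lie to the left of it.

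Because the subunits work as pairs, their balance within a rat was also taken. The log2 value of Itgam minus that of Itgb2 averaged 0.83 ± 0.45 in ER, 0.98 ± 0.24 in EE and 0.53 ± 0.41 in SH rats (SD, n = 6 each). The ranges, 0.048 to 1.31 in ER, 0.68 to 1.31 in EE and 0.091 to 1.20 in SH, overlap widely. For Itgal minus Itgb2 the averages were -2.41 ± 0.19 in ER, -2.28 ± 0.51 in EE and -2.60 ± 0.64 in SH rats. Since the values are not corrected for length, only the difference between groups can be read from these balances, not the ratio of the chains.

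Across rats, Itgb2 and Itgam varied together. After the group means were removed, their log2 values correlated with r = 0.676 over 18 rats (p = 0.00225, adjusted p = 0.0135 over 6 pairs, permutation test) and rho = 0.740 (p = 0.00072, adjusted p = 0.00432). Without the 2 rats farthest from the Itgb2 median r was 0.662, and without SH 1 and SH 3 it was 0.706. Itgb2 and Itgal had r = 0.363 and rho = 0.327 (permutation p = 0.14 and 0.185, adjusted p = 0.28 and 0.37), and r was 0.460 without the 2 farthest rats. Itgam and Itgal, both partners of the same beta chain, had r = 0.265 and rho = 0.230 (permutation p = 0.286 and 0.355, adjusted p = 0.429 and 0.533), and r was 0.367 without the 2 farthest rats. Of the pairs with Itgax, the r farthest from 0 was that with Itgal, at -0.378 (rho = -0.394, permutation p = 0.124 and 0.108, adjusted p = 0.28 and 0.324, r = -0.510 without the 2 farthest rats). Itgax with Itgb2 had r = 0.038 and rho = 0.120, and with Itgam r = 0.084 and rho = 0.149 (permutation adjusted p = 0.88 for r and 0.634 for rho in both). Without SH 1 and SH 3, r was 0.503 for Itgb2 with Itgal and 0.444 for Itgam with Itgal. For Itgax it was then -0.288 with Itgal, -0.166 with Itgb2 and -0.155 with Itgam.

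Microglia carry Itgam and Itgb2, and 18 of 19 other markers listed for them were measured, none of them at 0 in all rats. A score, the mean of their z values in each rat, averaged -0.34 ± 0.60 in ER, 0.33 ± 0.81 in EE and 0.013 ± 0.50 in SH rats (SD, n = 6 each). The summed normalized reads of these markers ranged from 9934 to 13960 in ER, from 10360 to 17730 in EE and from 11190 to 16220 in SH rats, so that the groups overlapped. The median log2 fold change of the list was 0.095 in EEvSH (12 of 18 above 0), -0.12 in ERvSH (6 of 18 above 0) and -0.22 in ERvEE (16 of 18 below 0), and 0 of 18 passed the adjusted test. Csf1r, the growth factor receptor on which microglia depend, averaged 1802 ± 276 in ER, 2276 ± 512 in EE and 1851 ± 183 in SH rats. Tmem119, a surface marker of microglia, averaged lowest in EE rats, with 325 ± 116 in ER, 281 ± 42.4 in EE and 409.7 ± 69.6 in SH rats (EEvSH -0.54, unadjusted p = 0.00916, adjusted p = 0.749, limma). It was the 1 of 18 markers lower in EEvSH at an unadjusted p under 0.05, against 2.53% of all genes. In the same contrast 3 of 18 were higher, against 3.35%. In ERvSH and in ERvEE 3 of 18 were lower, against 3.32% and 2.28% of all genes, and 0 were higher.

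The 2 subunits of complement receptor 3 tracked this score across rats. With group means removed, Itgb2 correlated with it at r = 0.767 and rho = 0.796 over 18 rats (permutation p = 0.00025 and 0.00016, adjusted p = 0.00084 and 0.00032 over 4 relations). Dropping the 2 rats whose scores lay farthest out gave r = 0.728. Itgam correlated with it at r = 0.743 and rho = 0.856 (permutation p = 0.00042 and 1e-05, the smallest that 100000 permutations can give, adjusted p = 0.00084 and 4e-05), and r was 0.852 without those rats. Itgal had r = 0.388 and rho = 0.286 (permutation p = 0.112 and 0.248, adjusted p = 0.149 and 0.331), and r was 0.197 without those rats. Itgax had r = -0.101 and rho = -0.0084 (permutation p = 0.688 and 0.976, which adjustment leaves as they are), and r was -0.0046 without those rats. Without SH 1 and SH 3, r was 0.852 for Itgb2, 0.711 for Itgam, 0.529 for Itgal and -0.3 for Itgax. Whether the relation of Itgal differs from that of Itgam was not tested.

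SH 1 and SH 2, the SH rats with the most Itgam, also had the highest SH scores, 0.81 and 0.42. When the score was entered into the model as a covariate, the difference of Itgam was 0.46 in EEvSH (unadjusted p = 0.0277, adjusted p = 0.717, limma), 0.35 in ERvSH (unadjusted p = 0.0873) and -0.11 in ERvEE (unadjusted p = 0.6). The values of Itgb2 in the same model were 0.07, -0.01 and -0.08, and those of Itgal 0.44, 0.14 and -0.30. In ERvEE these 3 were nearer to 0 than without the score, where Itgam, Itgb2 and Itgal had -0.50, -0.36 and -0.49, while Itgax was farther from it, at -1.11 against -0.98. The score is made from the same libraries and housing groups, so that its part in the differences was not tested by this.

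**Figure D3:**
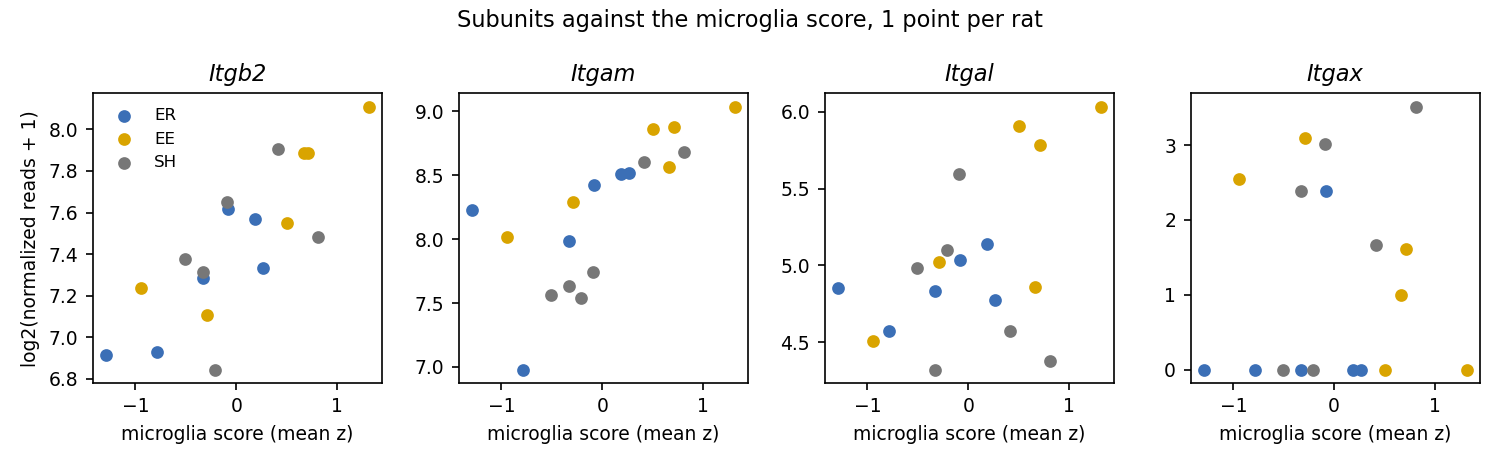
Log2(normalized reads + 1) of each subunit against the microglia score, the mean z of 18 markers without the integrins (1 point per rat). Itgb2 and Itgam are higher in rats with a higher score, with r = 0.767 and 0.743 after group means are removed, and Itgax shows no such order.

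Among the partners that beta-2 integrins bind, 13 of 17 listed genes were measured, 0 passed the adjusted test, and the median log2 fold changes were -0.019 in EEvSH, -0.081 in ERvSH and -0.092 in ERvEE. Icam1, the main ligand of LFA-1 on blood vessel cells, averaged 71.5 ± 16.5 in ER, 72.2 ± 21.1 in EE and 54.8 ± 3.55 in SH rats (SD, n = 6 each; EEvSH 0.34, adjusted p = 0.749, and ERvSH 0.35, adjusted p = 0.569, limma). Icam5, an LFA-1 ligand on dendrites of forebrain neurons, averaged 8247 ± 843 in ER, 7418 ± 1120 in EE and 7908 ± 829.7 in SH rats. C3, whose fragments are bound by complement receptors 3 and 4, averaged 430.1 ± 152 in ER, 572 ± 221 in EE and 473 ± 164 in SH rats. Only Fga, a chain of fibrinogen, had an unadjusted p under 0.05, as 1 of 13 genes in ERvSH and in ERvEE, against 4.57% and 1.38% of all genes with a higher value. It averaged 3.395 ± 1.73 in ER, 0.668 ± 1.64 in EE and 0.879 ± 2.15 in SH rats (ERvSH 1.59, unadjusted p = 0.0105, adjusted p = 0.567, ERvEE 1.64, unadjusted p = 0.00845, adjusted p = 1, limma). Its values come from a few reads.

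Beta-2 integrins bind only after a signal from inside the cell has opened them, through talin and kindlin-3 at the tail of the beta chain. All 18 genes listed for this step were tested and 0 passed, with medians of 0.11 in EEvSH, -0.0062 in ERvSH and -0.060 in ERvEE. Fermt3, the kindlin of blood cells and microglia, averaged 76.0 ± 10.6 in ER, 94.0 ± 38.8 in EE and 77.8 ± 18.01 in SH rats. Tln1, which encodes talin-1, averaged 1147 ± 150 in ER, 1246 ± 119 in EE and 1130 ± 168 in SH rats. Skap1, an adaptor for LFA-1 activation in T cells, averaged 19.9 ± 19.7 in ER, 41.1 ± 25.8 in EE and 27.7 ± 19.6 in SH rats (ERvEE -1.16, unadjusted p = 0.0548, limma). The only unadjusted p under 0.05 was that of Fermt1, the kindlin of epithelia, which makes 1 of 18 in ERvSH, against 3.32% of all genes with a lower value. It averaged 1.59 ± 1.89 in ER and 7.85 ± 5.13 in SH rats (ERvSH -1.82, unadjusted p = 0.00575, adjusted p = 0.567, limma).

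Once bound, the integrins signal through Src and Syk family kinases and adaptors. Of 18 such genes, 14 had a log2 fold change above 0 in EEvSH (median 0.12), 7 in ERvSH (median -0.016) and 3 in ERvEE (median -0.14), and 0 passed the adjusted test. Lcp2, the adaptor SLP-76, averaged 124 ± 29.1 in ER, 156 ± 28.3 in EE and 116 ± 16.3 in SH rats, with 0.42 in EEvSH (unadjusted p = 0.0223) and -0.35 in ERvEE (unadjusted p = 0.0496, limma). Pik3cg, the gamma form of PI 3-kinase of leukocytes, averaged 110.3 ± 27.3 in ER, 174 ± 41.9 in EE and 139.8 ± 21.5 in SH rats (ERvEE -0.66, unadjusted p = 0.00127, adjusted p = 1, limma). Lyn, a Src family kinase of myeloid and B cells, averaged 293 ± 45.4 in ER, 346 ± 56.3 in EE and 276 ± 50.4 in SH rats (EEvSH 0.33, unadjusted p = 0.0316, adjusted p = 0.749, limma). Tyrobp, the adaptor DAP12 through which microglial receptors reach Syk, averaged 192 ± 29.4 in ER, 261 ± 84.1 in EE and 246 ± 98.0 in SH rats. At an unadjusted p under 0.05, 2 of 18 genes were higher in EEvSH (Lcp2 and Lyn), against 3.35% of all genes, and 2 of 18 lower in ERvEE (Pik3cg and Lcp2), against 2.28%.

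The rest of the integrin family was set beside the beta-2 chains. Of 20 tested subunits, 13 lay above 0 in EEvSH (median 0.14), 11 in ERvSH (median 0.061) and 4 in ERvEE (median -0.20), and 0 passed the adjusted test. Itga4, whose receptors bind Vcam1, had 16.7 ± 7.36 normalized reads in ER, 33.4 ± 25.6 in EE and 9.10 ± 8.57 in SH rats (EEvSH 2.19, unadjusted p = 0.00745, adjusted p = 0.749, ERvSH 1.54, unadjusted p = 0.0489, adjusted p = 0.567, limma). Its ranges were 10.1 to 27.6 in ER, 7.25 to 73.6 in EE and 0 to 21.7 in SH rats, so that the groups overlapped. Itga5, the fibronectin receptor chain, averaged 29.4 ± 6.28 in ER, 35.4 ± 6.70 in EE and 47.0 ± 15.7 in SH rats (ERvSH -0.62, unadjusted p = 0.0132, limma). Itgb1, the beta chain shared by most other integrins, averaged 1623 ± 87.6 in ER, 1775 ± 232 in EE and 1637 ± 119 in SH rats. At an unadjusted p under 0.05, 2 of 20 were higher in EEvSH, Itga4 among them, against 3.35% of all genes. In ERvSH 1 of 20 was higher (Itga4), against 4.57%, and 2 were lower, Itga5 among them, against 3.32%. In ERvEE 0 of 20 were higher or lower at that level.

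Of the transcription factors of the myeloid lineage, 9 of 10 listed were tested and 0 passed, with medians of 0.18 in EEvSH, -0.051 in ERvSH and -0.097 in ERvEE. Spi1, whose core letters were searched upstream of Itgam, averaged 89.1 ± 20.3 in ER, 97.2 ± 27.8 in EE and 93.2 ± 17.5 in SH rats. Cebpa and Cebpb, factors of myeloid cells that other brain cells also use, lay lower in EE than in SH rats, at -0.41 and -0.35 (unadjusted p = 0.00756 and 0.0282, adjusted p = 0.749 for both, limma). They were the 2 of 9 lower at an unadjusted p under 0.05 in EEvSH, against 2.53% of all genes. In that contrast 1 of 9 was higher, against 3.35%. Irf8, which microglia need for their activated forms in mice, averaged 181 ± 47.8 in ER, 245 ± 68.2 in EE and 190.4 ± 45.0 in SH rats.

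**Figure D4:**
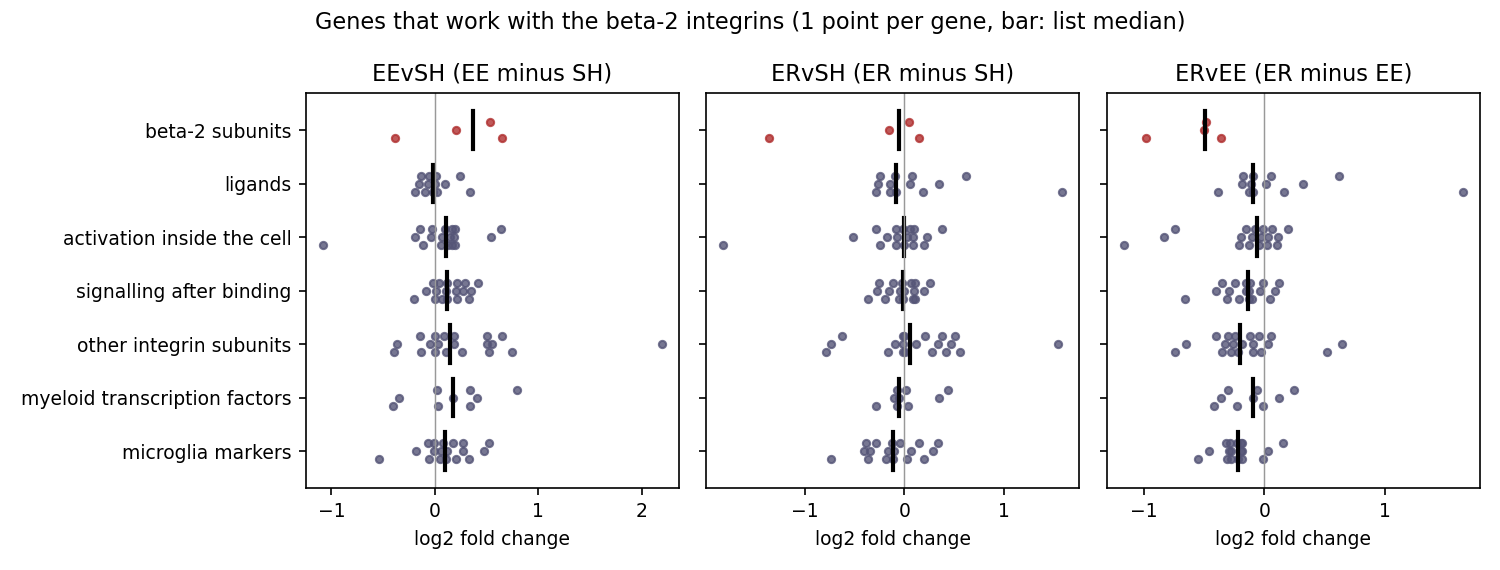
Log2 fold changes of the 4 subunits (red) and of 6 gene lists (blue-grey) in the 3 contrasts, 1 point per gene; black bars are list medians. In ERvEE the medians lie at -0.49 for the subunits, -0.22 for microglia markers and -0.20 for other integrin subunits, and no gene shown passed the adjusted test.

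Other blood cells also carry these receptors. The study reports that the rats were decapitated and the brains frozen, with no perfusion step described for them. Of 18 T and NK cell markers 7 were found, and Cd5 was at 0 in all rats. The summed values of the 7 were 227 to 324 in ER, 226 to 325 in EE and 212 to 342 in SH rats. By mean over all rats, Zap70 (137) and Lck (72.1) made up most of the sum. Of the 6 tested, 5 lay above 0 in EEvSH (median 0.30) and 3 in ERvEE (median 0.19), and 0 passed the adjusted test. Lck, a kinase of T cells, averaged 58.8 ± 5.20 in ER, 86.4 ± 20.9 in EE and 71.3 ± 43.8 in SH rats. Cd3e, a chain of the T cell receptor complex, averaged 41.0 ± 22.2 in ER, 31.7 ± 30.8 in EE and 48.1 ± 16.7 in SH rats, although the strand used in counting is not given and overlapping genes can add reads. The 4 of 7 B cell markers found summed to 12.3 to 46.3 in ER, 4.83 to 53.2 in EE and 15.4 to 34.7 in SH rats.

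Neutrophils are rich in Mac-1, and 7 of their 13 markers were found, with sums of 111 to 199.9 in ER, 116 to 209.7 in EE and 117 to 289.5 in SH rats. Of these 7, 1 lay above 0 in EEvSH (median -0.39) and 5 in ERvEE (median 0.24). Monocyte markers (5 of 7 found, Ly6c at 0 in all rats) summed to 424 to 858 in ER, 581 to 864 in EE and 534 to 782 in SH rats, most of it from Lyz2, which microglia can also express. All 4 tested monocyte markers lay above 0 in EEvSH (median 0.41) and below 0 in ERvEE (median -0.35), and 0 passed the adjusted test. Dendritic cell markers (5 of 8 found) summed to 349 to 571 in ER, 398 to 497 in EE and 307 to 575 in SH rats. By mean over all rats, Zbtb46 (231) and Flt3 (177) made up most of this sum. Of the 5 markers found, 3 lay above 0 in EEvSH (median 0.032) and 3 in ERvEE (median 0.031). The smallest p among them was that of Clec9a, a receptor of a dendritic cell subset, which averaged 2.36 ± 2.43 in ER, 5.56 ± 3.33 in EE and 0.868 ± 2.13 in SH rats (EEvSH 2.10, unadjusted p = 0.00266, adjusted p = 0.749, limma). The values of Clec9a come from a few reads. It was the 1 of 5 higher in EEvSH at an unadjusted p under 0.05, against 3.35% of all genes. In ERvSH 1 of 5 was lower, against 3.32%.

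Macrophages of vessels and meninges, through 9 of 10 markers, summed to 131 to 360.4 in ER, 159.5 to 435 in EE and 153 to 328 in SH rats. Of these 9, 4 lay above 0 in EEvSH (median -0.263), 2 in ERvSH (median -0.246) and 2 in ERvEE (median -0.195). Red blood cell genes (6 of 10 found) summed to 1736 to 4382 in ER, 1613 to 3307 in EE and 1809 to 6819 in SH rats. Of these 6, 2 lay above 0 in EEvSH (median -0.232), 0 in ERvSH (median -0.264) and 3 in ERvEE (median 0.0127). In each of these lists the groups overlapped, and the part of blood cells in the integrin values was not tested.

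The genes most like each subunit over the 18 libraries were sought among 15210 tested genes with a mean of at least 10. For Itgb2 they were Ppp2r1b, Tns3, Lhfpl6, Utrn and Gatm, with r of 0.912 to 0.887, and 0.910 to 0.867 after group means were removed. For Itgam they were Brinp3, Pabpc1, Nde1, Litaf and Lrrc3b, with r of 0.895 to 0.858, and for Itgal they included Ppif, LOC691141, Tp53inp2 and Lpcat2, with r of 0.780 to 0.758. For Itgax, with its few reads, the highest r was 0.749, with Zfp68. The microglial gene Csf1r stood at rank 46 for Itgb2 (r = 0.840), 108 for Itgam (r = 0.764) and 54 for Itgal (r = 0.663), against 8190 for Itgax (r = 0.0077). Itgam itself stood at rank 481 for Itgb2. These correlations share the same libraries, depth and housing groups and describe these 18 rats.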

How the data were processed

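The deposited values are a normalized signal. To make them, the authors aligned reads with HISAT2, counted them by gene and divided the counts by DESeq2 size factors. Not given in the sources used here are tool versions, counting tool, strandedness, genome build and annotation. Divided by the smallest step in each library, 100% of values up to 1000 reads were whole within 0.01, and these recovered reads served the count models. No sample column was left unused.

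In R 4.3.3, log2(value + 1) of the 18172 genes with a mean above 1 was fitted with limma 3.58.1 (1 model of 3 groups, intensity trend), with Benjamini-Hochberg adjustment over all genes and a threshold of 0.05. SE, intervals and fold changes come from that fit. Correlations used 100000 permutations.

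The members and the 14 other lists were chosen with earlier results of these data known, and the study had itself picked Itgal, Itgam and Itgb2 on these samples, so that their direction is not independent evidence. From each list the genes named are up to 4 with the smallest p in any contrast, the 2 with the highest mean, and genes that define a role, and for likeness the 5 with the highest r. A few genes that this rule takes are not reported here. Sequences, gene spans and neighbours are from RefSeq (GRCr8), and no gene positions are taken from the deposited table. Alternatives changed the scaling, filter, pseudocount, libraries and test (edgeR 4.0.16 and DESeq2 1.42.0 on recovered reads, limma-voom), used the replicate number as a block and added the microglia score.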

Additional observations from a re-analysis of the deposited data

Results flagged for a closer look

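Itgax in ER rats was singled out because 1 rat lay far from the others of its group: ER 2 had 4.24 normalized reads and the other 5 had 0. With 5 values at 0, any value above 0 would stand apart in this way, so that the 1 in 20 groups that chance gives does not apply to it. It was 1 of 12 groups examined, and the value stands on 4 reads.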

How the results depend on the processing

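Under 33 alternatives, 18 of which left out 1 library each, 386 of 393 values of the subunits kept their direction. Those with a test also kept their side of the threshold, while the log2 ratio of group means has no test. The lowest adjusted p of any subunit was 0.421 (Itgam, ERvEE, range 0.421 to 1). The 7 that turned were all Itgal in ERvSH (0.04 in the model described above): -0.05 without SH replicate 1, -0.01 without SH replicate 2, -0.06 without SH replicate 6, -0.01 without ER replicate 4, -0.019 with edgeR, -0.021 with DESeq2 and -0.018 for the log2 ratio of group means. Leaving out each library in turn moved this difference between -0.058 and 0.20. For the other differences, the lowest and highest values over all alternatives were 0.46 and 0.79 for Itgam, 0.39 and 0.70 for Itgal and 0.068 and 0.30 for Itgb2 in EEvSH, and -0.62 and -0.11, -0.65 and -0.30, and -0.46 and -0.077 in ERvEE. In ERvSH Itgb2 ran from -0.29 to -0.0076 and Itgam from 0.062 to 0.37. Itgax ran from -0.74 to -0.038 in EEvSH, -2.90 to -0.57 in ERvSH and -2.39 to -0.36 in ERvEE, and had no value under a minimum mean of 10. DESeq2 called 1 gene in EEvSH, 2 in ERvSH and 2 in ERvEE (Aurkc, Ctxn3, Ecel1 and Ankrd55), against 0 with limma, limma-voom and edgeR, and none of them is an integrin. The number of genes called without 1 library was 0 to 1 in ERvEE and 0 in the other contrasts. Without EE replicate 6 the gene called was LOC100360244. The unadjusted p of Itgam in EEvSH was under 0.05 in 27 of 32 tests (range 0.00692 to 0.0607), and that of Itgal in 3 of 32. In ERvEE this held in 4 of 32 tests for Itgam, 3 of 32 for Itgb2 and 2 of 32 for Itgal. For Itgax it held in 3 of 31 tests in ERvSH.

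Rats of different groups share replicate numbers in the labels, but only 1 of 18 correlations between same-numbered rats was over 0.1 (-0.0826 to 0.13), so the numbers were not taken as a pairing. With the replicate block, limma called 0 genes in each contrast and Itgam differed by 0.65 in EEvSH (SE 0.227, adjusted p = 0.762) and by -0.50 in ERvEE (adjusted p = 1), and no call changed. Depth limits Itgax, with 4 to 22 reads per group, and to a lesser degree Itgal, with 18 to 57 reads per rat.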
